A study of Homo sapiens with 12 samples.

Results

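Expression of 9 genes that write, copy, oxidise or feed the oxidation of DNA methylation was followed in OCI-AML3 cells in which mutant nucleophosmin can be degraded on demand. The genes were DNMT1, UHRF1, DNMT3A, DNMT3B, TET1, TET2, TET3, IDH1 and IDH2. They were chosen by name as the DNA methylation writers, erasers and linked leukaemia genes among the 78930 genes of the count table, and all 9 passed the low-count filter that left 24064 genes for testing. OCI-AML3 is a human line from acute myeloid leukaemia with NPM1c, a nucleophosmin mutant that sits in the cytoplasm. The line is also known for a DNMT3A mutation, which gene counts do not show. In the degron cells the mutant protein carries a tag that the compound dTAG-13 marks for destruction. The 3 lentiviral groups were given 500 nM dTAG-13 48 hours after transduction and sorted for mCherry after another 24 hours. The dTAG mCherry group carried mCherry alone, the dTAG FL-NPM1c group full-length NPM1c, and the dTAG C-body null group a construct of that name, which the labels do not describe further. The remaining group, NTC DMSO, is named for the solvent in its titles although its treatment label reads dTAG. Its labels name no construct and do not spell out NTC. Its sample entries carry the same 48 and 24 hours, without a dTAG-13 dose, and do not settle whether it was transduced or sorted. Comparisons with NTC DMSO therefore cannot tell dTAG-13 apart from transduction or sorting. Per the protocol all groups were the same degron line, although the cell line labels carry running numbers, and each had 3 libraries. The labels do not say that replicates were separate cultures, so p-values measure only the spread between these libraries.

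DNA methylation is copied after replication by DNMT1, which UHRF1 recruits to half-methylated sites, while DNMT3A and DNMT3B set new marks. TET1, TET2 and TET3 oxidise 5-methylcytosine to 5-hydroxymethylcytosine and beyond, using 2-oxoglutarate that the isocitrate dehydrogenases IDH1 (cytosol and peroxisome) and IDH2 (mitochondria) produce. DNMT3A, TET2, IDH1 and IDH2 are recurrently mutated in acute myeloid leukaemia, and mutant IDH enzymes make 2-hydroxyglutarate, which inhibits TET enzymes. RNA counts show neither enzyme activity nor DNA methylation.

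The 12 libraries held 30.5 M to 59.9 M gene counts (median 41.0 M). NPM1 averaged 1252 ± 171 counts scaled to library size (CPM) in dTAG mCherry, 1651 ± 38.9 in dTAG FL-NPM1c, 1922 ± 21.7 in dTAG C-body null and 1429.6 ± 117 in NTC DMSO (SD, n = 3 each); dTAG-13 acts on the protein, and counts do not separate construct from endogenous transcripts. All 8 myeloid markers reached 1 CPM in every group. T and NK cell markers summed to 0.775 to 1.37 CPM per library. Nearly all of that was NKG7 (group means 0.967 to 1.08 CPM), while CD3D, CD3E, CD3G and CD2 were at 0 in every library. B and plasma cell markers summed to 1.57 to 6.81 CPM and erythroid and megakaryocyte markers to 0.149 to 0.606 CPM per library, with HBB at 0. Epithelial and fibroblast markers summed to 449 to 559 CPM in dTAG mCherry, 629 to 719 in dTAG FL-NPM1c, 455 to 554 in dTAG C-body null and 60.2 to 67.2 in NTC DMSO, with EPCAM and CDH1 at 0. Nearly all of that was FN1, fibronectin (516 ± 59.1 CPM in dTAG mCherry, 685 ± 49.7 in dTAG FL-NPM1c, 509.9 ± 50.4 in dTAG C-body null and 62.6 ± 3.62 in NTC DMSO). Their part in the results was not tested. Summed CPM of 10 monocyte markers were 927 to 1031 in dTAG mCherry, 605 to 762 in dTAG FL-NPM1c, 1008 to 1041 in dTAG C-body null and 109.5 to 121 in NTC DMSO. Replicates of each group differed beyond counting noise (chi-square per degree of freedom 3.58 to 35.8 over the 12 pairs), most between dTAG mCherry replicates 2 and 3. The dTAG mCherry libraries also had 7.32% to 9.63% of counts on mitochondrial genes, against 6.83% to 7.63% elsewhere. In these bulk libraries, fewer cells of a type and less RNA per cell cannot be told apart.

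Per kilobase of the union of a gene's annotated exons, IDH1 was the most abundant of the 9 and TET1 the least in every group, as also per kilobase of the longest transcript. IDH1 averaged 59.9 ± 4.95 CPM per kb in dTAG mCherry, 44.0 ± 0.28 in dTAG FL-NPM1c, 52.8 ± 1.99 in dTAG C-body null and 59.4 ± 4.77 in NTC DMSO. TET1 averaged 0.467 ± 0.070 CPM per kb in dTAG mCherry, 0.322 ± 0.032 in dTAG FL-NPM1c, 0.417 ± 0.094 in dTAG C-body null and 0.736 ± 0.071 in NTC DMSO. Between them came, by union length, IDH2, the pair DNMT1 and UHRF1, then TET3, DNMT3B, DNMT3A and TET2. This order changes with the length used. Per kilobase of the longest transcript DNMT1 stood above IDH2 in every group (35.8 and 29.2 CPM per kb in dTAG mCherry, 48.3 and 35.0 in NTC DMSO). TET2 then stood above DNMT3B and DNMT3A in dTAG mCherry (3.60, 3.09 and 2.94 CPM per kb) and dTAG C-body null (3.78, 3.05 and 3.03). By union length the libraries of DNMT1 and UHRF1 overlapped everywhere except in dTAG C-body null, while by the longest transcript DNMT1 averaged 48.3 and UHRF1 34.6 CPM per kb in NTC DMSO. By union length the ranges of DNMT3A and TET2 overlapped in dTAG mCherry and dTAG C-body null, and those of DNMT3B and DNMT3A in dTAG mCherry.

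**Figure D1:**
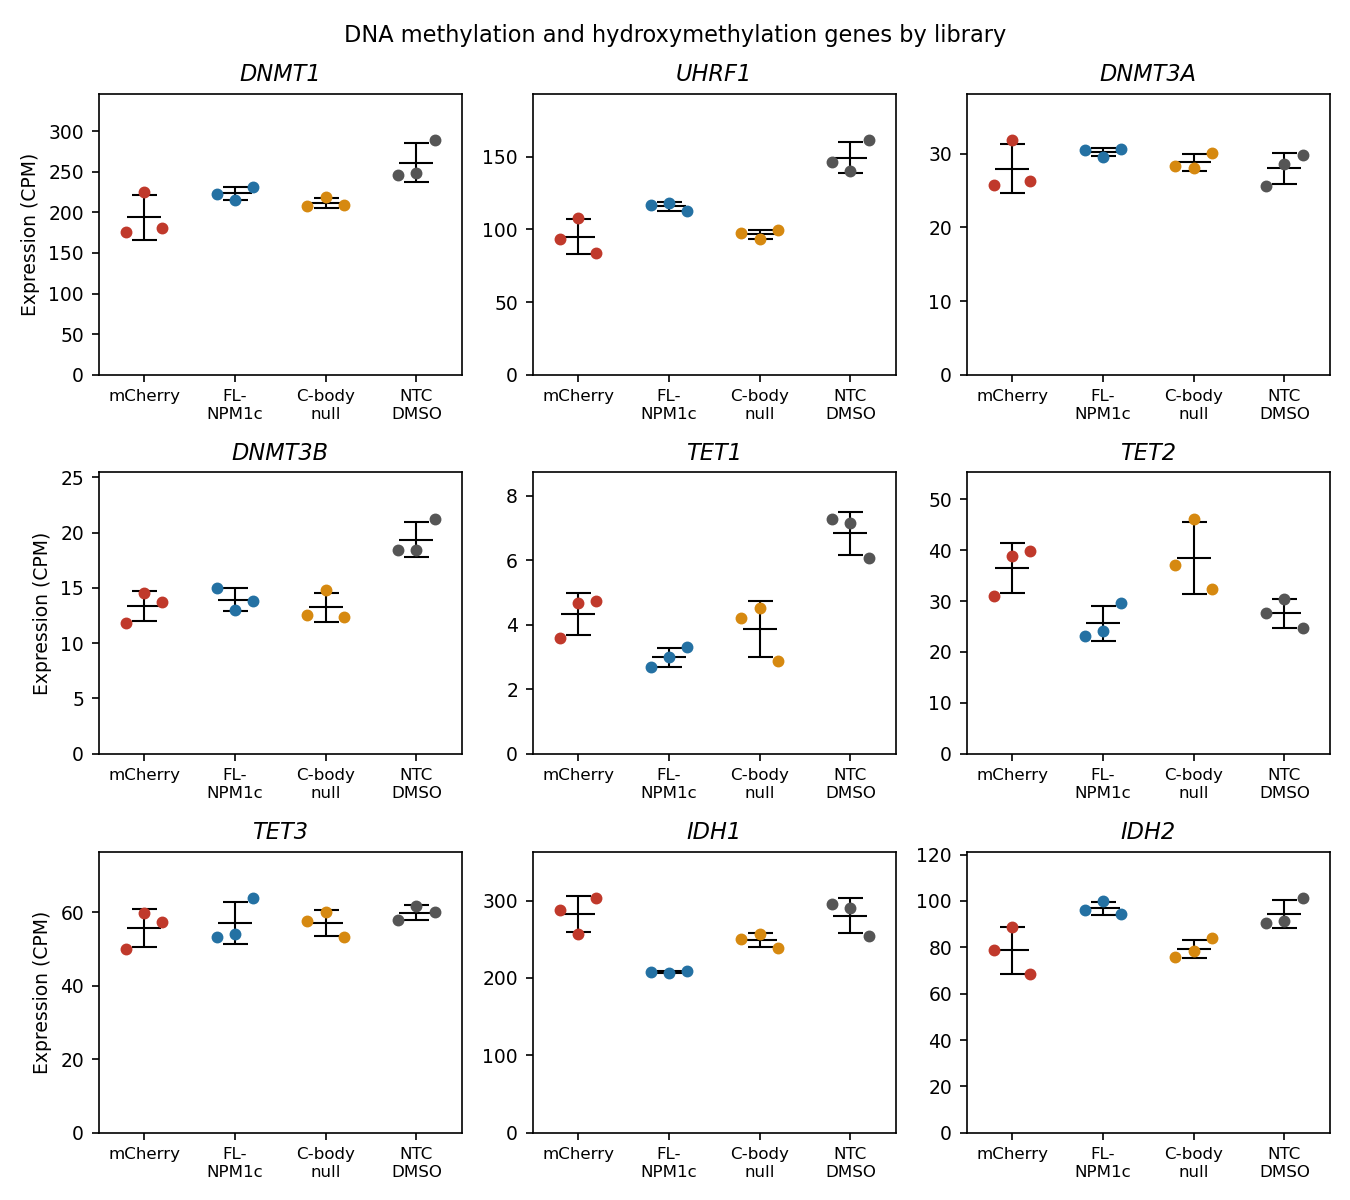
CPM of each of the 9 genes in the 12 libraries, with a point per library and the group mean and SD, groups ordered dTAG mCherry, dTAG FL-NPM1c, dTAG C-body null and NTC DMSO. DNMT1, UHRF1, DNMT3B and TET1 lie lower in every dTAG library than in any NTC DMSO library, and IDH1 is lowest in dTAG FL-NPM1c.

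Of the 9 genes, 6 changed in dTAG mCherry against NTC DMSO (edgeR quasi-likelihood test, Benjamini-Hochberg adjusted p under 0.05), where 22.6% of all genes tested were called. TET2 was higher, against 12.9% of all genes, and DNMT1, UHRF1, DNMT3B, TET1 and IDH2 were lower, against 9.69%. The libraries of the 2 groups did not overlap for 6 of the 9 genes, against 32.1% of all genes. In dTAG FL-NPM1c against dTAG mCherry, 5 changed (15.5% of all genes), with UHRF1 and IDH2 higher (7.58%) and TET1, TET2 and IDH1 lower (7.95%); 5 of the 9 did not overlap (32.4%).

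In dTAG C-body null against dTAG mCherry edgeR called 0 of the 9 genes, with 0.594% of all genes called; IDH1 alone had an unadjusted p under 0.05, and DESeq2 called 0. There 0 of the 9 had groups that did not overlap, against 15.0% of all genes. In dTAG FL-NPM1c against dTAG C-body null, 9.68% of all genes were called, and TET2 and IDH1 were lower (4.86%); 4 of the 9 did not overlap (35.1%). Against NTC DMSO, dTAG FL-NPM1c had UHRF1, DNMT3B, TET1 and IDH1 lower, with 27.9% of all genes called and 13.3% lower; 5 of the 9 did not overlap (43.5%). In dTAG C-body null against NTC DMSO (26.6% of all genes called), TET2 was higher (14.1%) and DNMT1, UHRF1, DNMT3B and TET1 were lower (12.4%); 6 of the 9 did not overlap (40.4%). These comparisons share groups and are not independent: 3 share the NTC DMSO libraries and 3 the dTAG mCherry libraries. DNMT3A and TET3 were called in none of the 6. The median log2 fold change of the 9 genes was -0.26 in dTAG mCherry against NTC DMSO (all genes -0.0016), 0.058 in dTAG FL-NPM1c against dTAG mCherry (all genes -0.0019), 0.027 in dTAG C-body null against dTAG mCherry (all genes -0.013). It was 0.067 in dTAG FL-NPM1c against dTAG C-body null (all genes 0.0055), -0.22 in dTAG FL-NPM1c against NTC DMSO (all genes 0.023) and -0.25 in dTAG C-body null against NTC DMSO (all genes -0.00072).

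**Figure D2:**
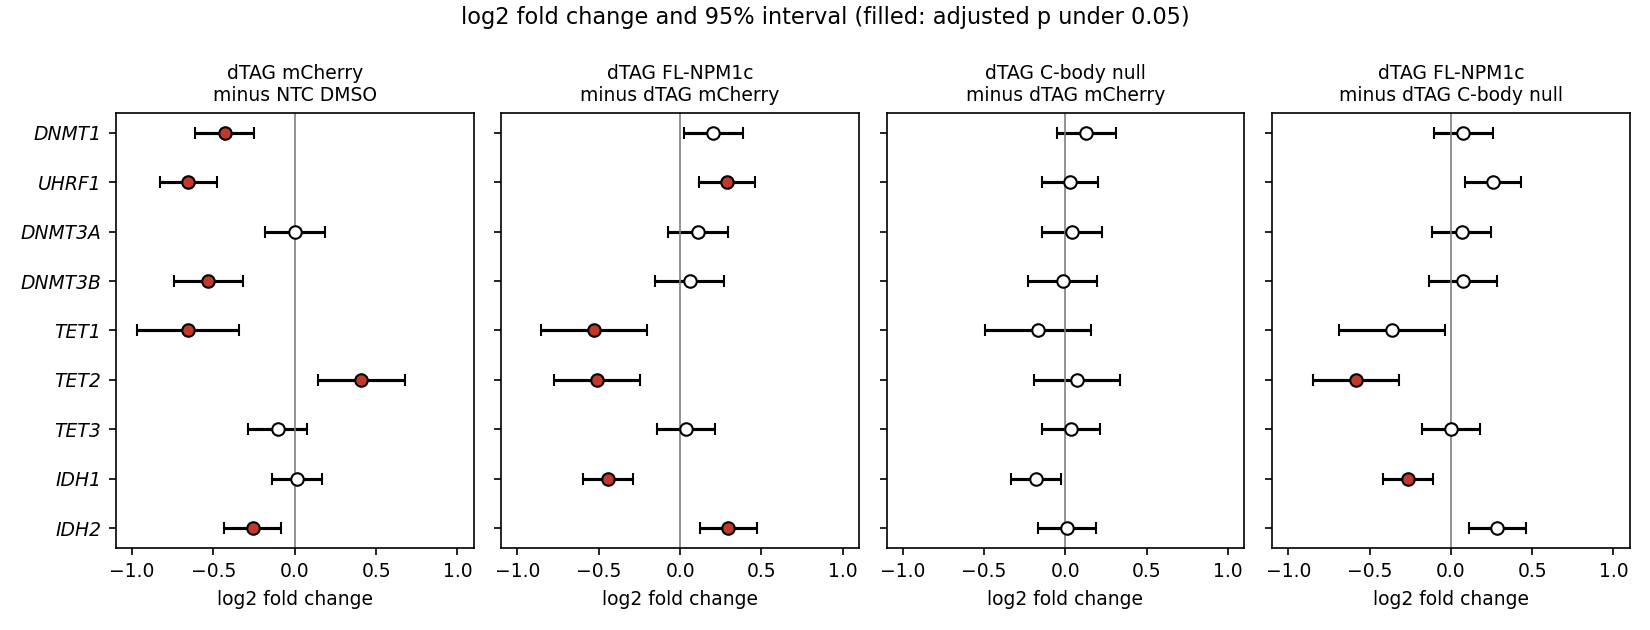
Log2 fold change of each of the 9 genes (x axis) in 4 of the 6 comparisons (panels), with the 95% interval; filled points passed adjusted p under 0.05 by edgeR's quasi-likelihood test. In dTAG FL-NPM1c against dTAG mCherry, UHRF1 and IDH2 lie above 0 and TET1, TET2 and IDH1 below, and the panel of dTAG C-body null against dTAG mCherry has no filled point.

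DNMT1 (ENSG00000130816) is the maintenance methyltransferase, on chr19:10133345-10231286 (GRCh38, minus strand). It had 175, 225 and 181 CPM in dTAG mCherry replicates 1 to 3, against 246, 249 and 289 in NTC DMSO. The highest dTAG mCherry library stayed below the lowest NTC DMSO library. The log2 fold change was -0.43 ± 0.09 (SE; adjusted p = 0.0029), and DNMT1 was called with any of the 6 libraries left out. Its values were 223, 216 and 232 CPM in dTAG FL-NPM1c, with 208, 219 and 209 in dTAG C-body null. Every dTAG library thus lay below every NTC DMSO library. DNMT1 fell in dTAG C-body null against NTC DMSO (-0.30 ± 0.09, adjusted p = 0.024). That call was lost without dTAG C-body null replicate 1 (adjusted p = 0.079) or 3 (0.060), without NTC DMSO replicate 3 (0.083), and with library totals only (0.051). Against NTC DMSO, dTAG FL-NPM1c did not overlap and was not called (-0.22 ± 0.09, adjusted p = 0.082, and 0.034 without the low-count filter). DNMT1 was called there with the 2 groups alone as well, but not with any library left out. Against dTAG mCherry the value was 0.20 ± 0.09 (adjusted p = 0.14) in dTAG FL-NPM1c, and 0.33 (adjusted p = 0.0060) without dTAG mCherry replicate 2, the library with the most DNMT1 in that group. S1PR2, which overlaps 83 exon bases of DNMT1 on the same strand, had 1068 counts over all 12 libraries.

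UHRF1 (ENSG00000276043, chr19:4903080-4962154, plus strand) binds half-methylated DNA and brings DNMT1 to it. It had 93.5, 108 and 83.5 CPM in dTAG mCherry and 116, 118 and 113 CPM in dTAG FL-NPM1c. The dTAG C-body null libraries had 97.4, 93.1 and 99.4 CPM, against 146, 140.1 and 161 CPM in NTC DMSO. All 9 dTAG libraries lay below all 3 NTC DMSO libraries, and every dTAG FL-NPM1c library lay above every library of the other 2 dTAG groups. Against NTC DMSO, UHRF1 fell in dTAG mCherry (-0.65 ± 0.09, adjusted p = 4.5e-05), dTAG FL-NPM1c (-0.37 ± 0.09, 0.0059) and dTAG C-body null (-0.63 ± 0.09, 5.2e-05), each called whichever library was left out. UHRF1 was higher in dTAG FL-NPM1c than in dTAG mCherry (0.29 ± 0.09, adjusted p = 0.037). That call was lost without dTAG FL-NPM1c replicate 1, 2 or 3 or without dTAG mCherry replicate 1 or 3 (adjusted p 0.0026 to 0.16 over the libraries left out), and with the 2 groups alone (0.077). Against dTAG C-body null the value in dTAG FL-NPM1c was 0.26 ± 0.09 (adjusted p = 0.075, and 0.0041 with the 2 groups alone). dTAG C-body null against dTAG mCherry gave 0.03 (95% interval -0.15 to 0.20).

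Start windows of DNMT1 and UHRF1 are printed because both genes were lower in dTAG mCherry than in NTC DMSO and because, of the windows of the 9 genes, these held E2F letters. Sequences are from RefSeq (GRCh38.p14), 250 bases before to 20 after an annotated start, 5′ to 3′ on the gene's strand. Capitals mark a match to the E2F letters TTTCCCGC, TTTCGCGC, TTTGCCGC or TTTGGCGC on either strand. DNMT1 lies at chr19:10194934-10195203 (minus), UHRF1 window 1 at chr19:4909251-4909520 (plus) and UHRF1 window 2 at chr19:4909894-4910163 (plus). These starts, and those of the DNMT3B, IDH1 and IDH2 windows, lie inside the gene spans given here. Starts nearer the outer ends of these genes were therefore not searched.
DNMT1: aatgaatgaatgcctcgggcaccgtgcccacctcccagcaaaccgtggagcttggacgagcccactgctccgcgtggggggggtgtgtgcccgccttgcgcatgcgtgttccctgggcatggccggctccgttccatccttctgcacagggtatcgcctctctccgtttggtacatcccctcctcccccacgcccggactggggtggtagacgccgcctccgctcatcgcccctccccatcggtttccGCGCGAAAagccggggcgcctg
UHRF1 window 1: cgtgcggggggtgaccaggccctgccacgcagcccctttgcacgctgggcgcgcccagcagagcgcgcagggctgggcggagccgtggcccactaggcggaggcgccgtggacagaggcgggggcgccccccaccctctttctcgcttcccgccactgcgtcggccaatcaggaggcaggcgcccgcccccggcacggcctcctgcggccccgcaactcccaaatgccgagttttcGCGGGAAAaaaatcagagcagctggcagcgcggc
UHRF1 window 2: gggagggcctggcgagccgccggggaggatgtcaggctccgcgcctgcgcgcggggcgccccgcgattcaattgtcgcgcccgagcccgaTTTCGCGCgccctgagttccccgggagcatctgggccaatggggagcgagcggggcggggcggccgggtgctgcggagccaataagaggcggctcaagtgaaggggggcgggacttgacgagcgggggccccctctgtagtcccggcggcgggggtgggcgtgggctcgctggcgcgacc
Over windows of 300 bases (250 before to 50 after), 1164 of 35116 (3.31%) held an E2F match. The first base of the match lay at position -2 in DNMT1, -14 in UHRF1 window 1 and -160 in UHRF1 window 2, counting the start base as 1 with no 0. UHRF1 window 3 and the windows of the other 7 genes held none. Among those 7, DNMT3B, TET1 and IDH2 were also lower in dTAG mCherry than in NTC DMSO. DNMT1's window held 30 CpG pairs and the UHRF1 windows 36, 40 and 46, against a median of 14 over all windows. The 3.31% share was not taken over windows of like CpG content. CACGTG, the E-box letters, was in 7.26% of all windows, and among the 9 genes in windows of DNMT3A, TET2 and TET3. A match describes letters only.

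DNMT3A (ENSG00000119772, chr2:25227855-25342590, minus strand) had 25.8, 31.8 and 26.3 CPM in dTAG mCherry and 30.4, 29.5 and 30.6 CPM in dTAG FL-NPM1c. It had 28.3, 28.0 and 30.1 CPM in dTAG C-body null, against 25.6, 28.6 and 29.8 CPM in NTC DMSO. All 4 groups overlapped one another, and the 6 log2 fold changes lay between 0.00 and 0.11. For dTAG mCherry against NTC DMSO the 95% interval was -0.18 to 0.18.

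DNMT3B (ENSG00000088305, chr20:32762385-32809356, plus strand), the other de novo methyltransferase, had 11.9, 14.5 and 13.8 CPM in dTAG mCherry and 15.0, 13.0 and 13.8 CPM in dTAG FL-NPM1c. It had 12.6, 14.8 and 12.4 CPM in dTAG C-body null, against 18.4, 18.4 and 21.2 CPM in NTC DMSO. Every dTAG library lay below every NTC DMSO library, while the dTAG groups overlapped. Against NTC DMSO it fell in dTAG mCherry (-0.53 ± 0.11, adjusted p = 0.0017), dTAG FL-NPM1c (-0.47 ± 0.11, 0.0037) and dTAG C-body null (-0.55 ± 0.11, 0.0011), in each with any library left out. Among the dTAG groups its values were 0.06, -0.02 and 0.07, with no call.

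Proliferation markers were set beside DNMT1, UHRF1 and DNMT3B, of which only UHRF1 was called in dTAG FL-NPM1c against dTAG mCherry. Of 18 S phase and proliferation markers, 18 fell in dTAG mCherry against NTC DMSO (median log2 fold change -0.58, all genes -0.0016), where 9.69% of all genes fell. Against NTC DMSO 14 of the markers fell in dTAG FL-NPM1c (median -0.48, against 13.3% of all genes) and 18 in dTAG C-body null (median -0.59, against 12.4%). In dTAG FL-NPM1c against dTAG mCherry 6 of the markers rose and 0 fell (median 0.09, with 7.58% of all genes higher). None of the markers changed in dTAG C-body null against dTAG mCherry, where 0.594% of all genes were called. Their mean log2 CPM was 6.85 ± 0.03 in dTAG mCherry, 7.01 ± 0.02 in dTAG FL-NPM1c, 6.83 ± 0.01 in dTAG C-body null and 7.45 ± 0.01 in NTC DMSO. The part of these markers in the changes of DNMT1, UHRF1 and DNMT3B was not tested.

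**Figure D3:**
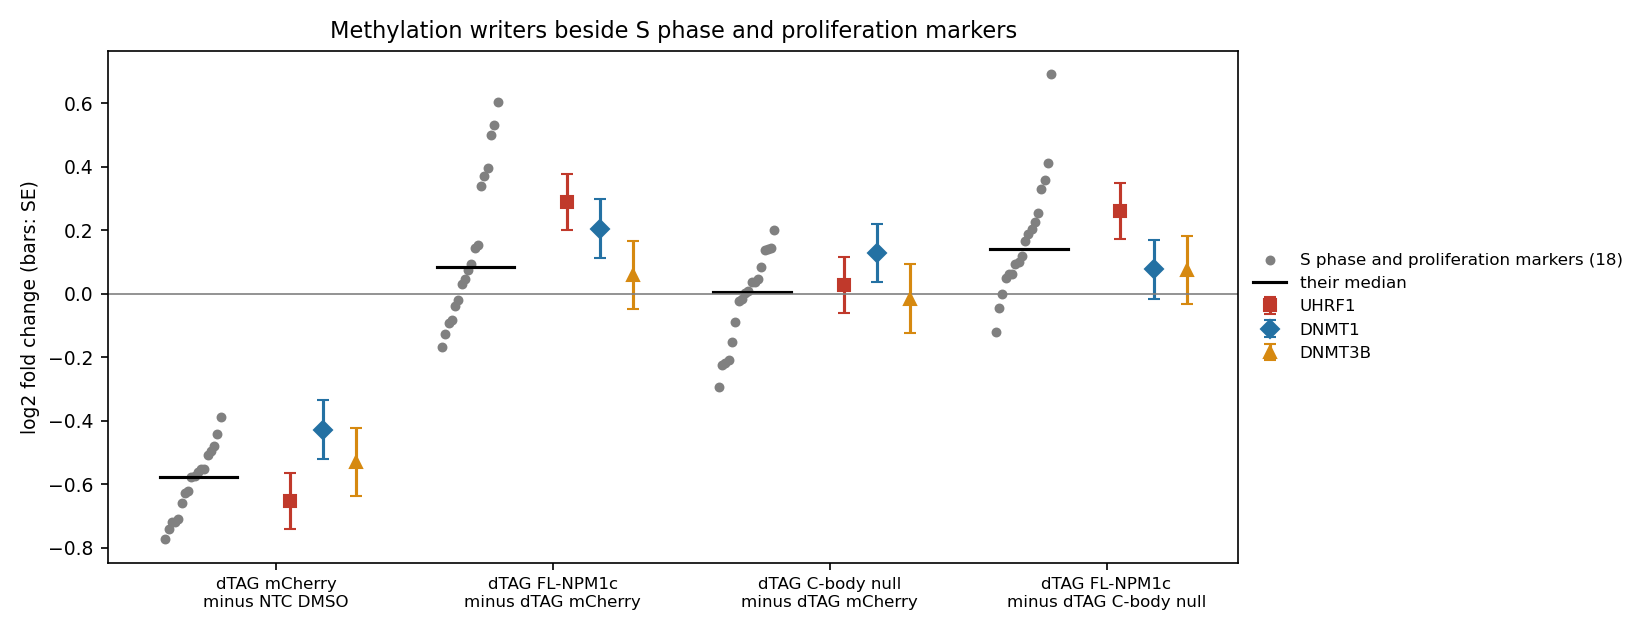
Log2 fold change of UHRF1, DNMT1 and DNMT3B (coloured points with SE bars) beside 18 S phase and proliferation markers (grey points, with a line at their median) in 4 comparisons. In dTAG mCherry against NTC DMSO the 3 genes and all 18 markers lie below 0, and in dTAG FL-NPM1c against dTAG mCherry UHRF1 lies at 0.29 and the marker median at 0.09.

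Of 13 partners of maintenance methylation, 1 rose and 6 fell in dTAG mCherry against NTC DMSO (median -0.22), where 12.9% of all genes rose and 9.69% fell. CDCA7L (-0.51 ± 0.07) and PCLAF, which binds the replication clamp PCNA (-0.49 ± 0.08), fell, and DNMT3L rose at under 1 CPM. In dTAG C-body null against NTC DMSO 1 rose (14.1% of all genes) and 7 fell (12.4%). HELLS, a chromatin remodeller needed for DNA methylation, stood there at -0.67 ± 0.12 (adjusted p = 0.00046). In dTAG FL-NPM1c against dTAG mCherry, where 7.58% of all genes rose, EHMT2 (0.38 ± 0.11) and LIG1, the replicative DNA ligase (0.35 ± 0.11), rose and none fell. A further comparison, dTAG FL-NPM1c against NTC DMSO, had 1 higher and 6 lower (median -0.17), with 27.9% of all genes called and 13.3% lower. Of 9 readers of methylated DNA, 2 rose in dTAG mCherry against NTC DMSO, among them ZBTB4 (0.27 ± 0.08), and none fell (median -0.04). ZBTB4 alone rose in dTAG FL-NPM1c against NTC DMSO (0.36 ± 0.08), where 3507 of 24064 genes tested were higher.

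TET1 (ENSG00000138336, chr10:68560656-68694482, plus strand) had the fewest counts of the 9, 121 to 293 per library. It had 3.59, 4.67 and 4.74 CPM in dTAG mCherry and 2.70, 2.99 and 3.30 CPM in dTAG FL-NPM1c. The dTAG C-body null libraries had 4.21, 4.53 and 2.88 CPM, against 7.27, 7.15 and 6.08 CPM in NTC DMSO. No dTAG library reached an NTC DMSO library. TET1 fell against NTC DMSO in dTAG mCherry (-0.66 ± 0.16, adjusted p = 0.0068), dTAG FL-NPM1c (-1.19 ± 0.16, 6.5e-05) and dTAG C-body null (-0.82 ± 0.16, 0.0011), whichever library was left out. It was also lower in dTAG FL-NPM1c than in dTAG mCherry (-0.53 ± 0.17, adjusted p = 0.041), without overlap. That call was lost without dTAG FL-NPM1c replicate 1, 2 or 3 or dTAG mCherry replicate 2 or 3 (adjusted p 0.028 to 0.12 over the libraries left out), with library totals only (0.053) and with the 2 groups alone (0.051). dTAG FL-NPM1c against dTAG C-body null gave -0.36 ± 0.17 (adjusted p = 0.19), and -0.57 (0.031) without dTAG C-body null replicate 3.

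TET2 (ENSG00000168769, chr4:105145875-105279816, plus strand) had 30.9, 38.9 and 39.9 CPM in dTAG mCherry and 23.2, 24.2 and 29.5 CPM in dTAG FL-NPM1c. The dTAG C-body null libraries had 37.1, 46.0 and 32.3 CPM, against 27.6, 30.4 and 24.7 CPM in NTC DMSO. The dTAG mCherry and dTAG C-body null libraries all lay above those of dTAG FL-NPM1c and NTC DMSO, which overlapped each other. TET2 rose in dTAG mCherry against NTC DMSO (0.41 ± 0.14, adjusted p = 0.041) and in dTAG C-body null against NTC DMSO (0.48 ± 0.14, 0.015). It was lower in dTAG FL-NPM1c than in dTAG mCherry (-0.51 ± 0.14, adjusted p = 0.020) and than in dTAG C-body null (-0.58 ± 0.14, 0.011). dTAG FL-NPM1c against NTC DMSO gave -0.10 (95% interval -0.37 to 0.16). Each call was lost with some library left out. For dTAG mCherry against NTC DMSO these were NTC DMSO replicates 1 and 3 and dTAG mCherry replicates 2 and 3 (adjusted p 0.023 to 0.12; 0.051 with RLE factors), and for dTAG C-body null against NTC DMSO, dTAG C-body null replicate 2 (0.0061 to 0.11). For dTAG FL-NPM1c against dTAG mCherry they were dTAG FL-NPM1c replicates 1 and 2 and dTAG mCherry replicate 3 (0.012 to 0.086), and against dTAG C-body null, dTAG C-body null replicate 2 and dTAG FL-NPM1c replicate 2 (0.0033 to 0.062). Of 10 monocyte markers, 10 rose in dTAG mCherry (median 3.22, against 12.9% of all genes) and 10 in dTAG C-body null (median 3.34, against 14.1%) relative to NTC DMSO. In dTAG FL-NPM1c against NTC DMSO, where TET2 was -0.10 (adjusted p = 0.61), 8 rose and 1 fell (median 3.11, with 27.9% of all genes called). In dTAG FL-NPM1c 4 were lower than in dTAG mCherry (median -0.34, against 7.95% of all genes) and 6 lower than in dTAG C-body null (4.86%), with none higher in either. Their part in the TET2 values was not tested.

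TET3 (ENSG00000187605, chr2:73986404-74108176, plus strand) had 49.9, 59.8 and 57.2 CPM in dTAG mCherry and 53.4, 54.1 and 63.7 CPM in dTAG FL-NPM1c. It had 57.7, 60.1 and 53.3 CPM in dTAG C-body null, against 57.8, 61.8 and 59.9 CPM in NTC DMSO. All groups overlapped, and log2 fold changes ran from -0.11 to 0.04. Of the summed TET level per kb of union exon length, TET2 made up 30.7% ± 1.11 in dTAG mCherry, 23.8% ± 0.58 in dTAG FL-NPM1c, 31.4% ± 2.42 in dTAG C-body null and 22.9% ± 1.47 in NTC DMSO. TET1 made up 6.45% ± 0.31 in dTAG mCherry, 4.94% ± 0.21 in dTAG FL-NPM1c, 5.59% ± 0.78 in dTAG C-body null and 10.1% ± 0.81 in NTC DMSO. The sums overlapped between all groups: 7.22 ± 0.77 CPM per kb in dTAG mCherry, 6.53 ± 0.71 in dTAG FL-NPM1c, 7.40 ± 0.79 in dTAG C-body null and 7.29 ± 0.32 in NTC DMSO. The shares depend on the length used: per kb of the longest transcript TET2 averaged 3.60 and TET3 4.89 CPM in dTAG mCherry.

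**Figure D4:**
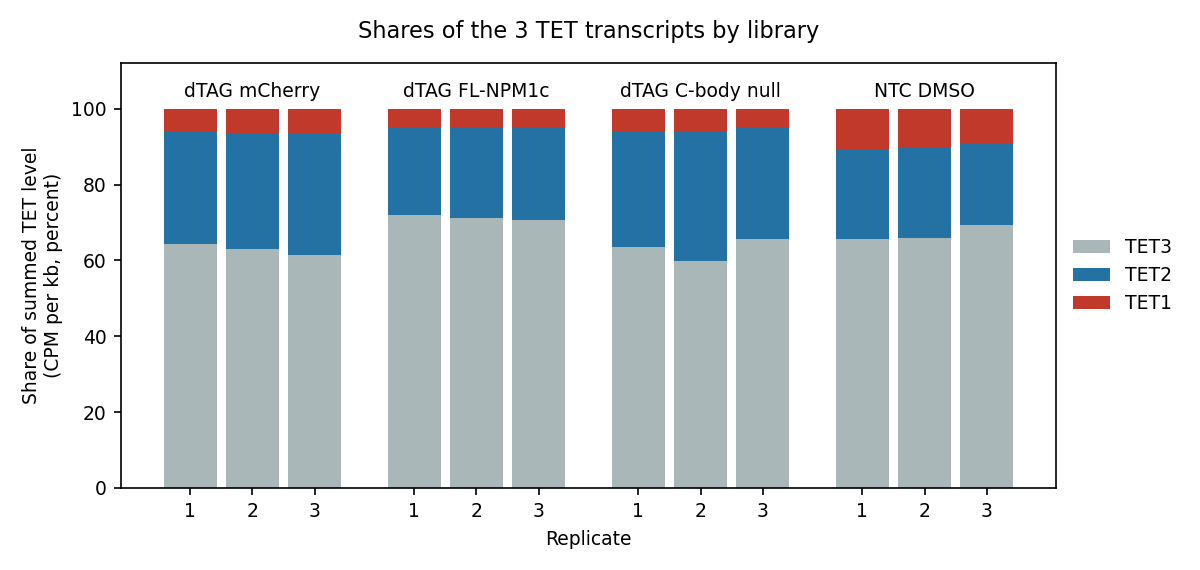
Share of TET1, TET2 and TET3 in their summed level (CPM per kb), in percent, by library and group. TET3 holds the largest share in every group, TET2 averages 30.7% in dTAG mCherry and 31.4% in dTAG C-body null, and TET1 10.1% in NTC DMSO.

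Among 16 tested genes of base excision and TET partners, 2 rose and 3 fell in dTAG mCherry against NTC DMSO (median -0.09), 5 genes in all, where 22.6% of all genes were called. GADD45A, a stress protein linked to demethylation, averaged 10.4 ± 1.65 CPM in dTAG mCherry and 3.52 ± 0.72 in NTC DMSO (1.55 ± 0.15, adjusted p = 8.0e-07). It also rose against NTC DMSO in dTAG FL-NPM1c (1.42 ± 0.14) and dTAG C-body null (1.53 ± 0.14). WT1, a transcription factor that binds TET2, fell at under 1 CPM (0.152 ± 0.015 CPM in dTAG mCherry and 0.525 ± 0.052 in NTC DMSO, -1.78 ± 0.34, adjusted p = 0.0011). OGT, the O-GlcNAc transferase that binds TET proteins, rose in dTAG mCherry against NTC DMSO (0.45 ± 0.08) and was lower in dTAG FL-NPM1c than in dTAG mCherry (-0.41 ± 0.08, adjusted p = 0.0035) and than in dTAG C-body null (-0.31 ± 0.08, 0.022). MBD4, a glycosylase for mismatched thymine at CpG sites, was lower in dTAG FL-NPM1c than in dTAG mCherry (-0.49 ± 0.09, adjusted p = 0.0028). MBD4 was also lower in dTAG FL-NPM1c than in dTAG C-body null (-0.33 ± 0.09, adjusted p = 0.035). TDG, the glycosylase that removes TET products, fell against NTC DMSO in dTAG FL-NPM1c (-0.48 ± 0.10) and dTAG C-body null (-0.40 ± 0.10). The list had 1 higher and 2 lower in dTAG FL-NPM1c against dTAG mCherry (15.5% of all genes called), 1 higher and 3 lower against dTAG C-body null (9.68%), and 2 higher and 4 lower against NTC DMSO (27.9%). In dTAG C-body null against NTC DMSO 4 rose and 3 fell (26.6%).

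IDH1 (ENSG00000138413, chr2:208236227-208266074, minus strand) had 288, 257 and 303 CPM in dTAG mCherry and 208, 207 and 209 CPM in dTAG FL-NPM1c. The dTAG C-body null libraries had 251, 257 and 239 CPM, against 296, 290.4 and 254 CPM in NTC DMSO. The 3 dTAG FL-NPM1c libraries lay below all 9 others. IDH1 fell in dTAG FL-NPM1c against dTAG mCherry (-0.44 ± 0.08, adjusted p = 0.0015) and against NTC DMSO (-0.43 ± 0.08, 0.00079), whichever library was left out. Against dTAG C-body null the value was -0.26 ± 0.08 (adjusted p = 0.045), and that call was lost without dTAG C-body null replicate 1 or 2 or any dTAG FL-NPM1c library (0.048 to 0.15). In dTAG mCherry against NTC DMSO it was 0.01 (95% interval -0.14 to 0.17). In dTAG C-body null against dTAG mCherry it was -0.18 (-0.34 to -0.03; adjusted p = 0.38), and against NTC DMSO -0.17 ± 0.08 (0.12), called without NTC DMSO replicate 3 (-0.24, 0.031). IDH1-AS1 on the opposite strand shares 94 exon bases with IDH1; it averaged 16.5 ± 1.67 CPM in dTAG mCherry, 16.2 ± 0.50 in dTAG FL-NPM1c, 19.4 ± 1.72 in dTAG C-body null and 17.9 ± 2.86 in NTC DMSO, and the strand setting of the counting is not given in the sources used here.

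IDH2 (ENSG00000182054, chr15:90083045-90102504, minus strand) had 78.9, 88.8 and 68.3 CPM in dTAG mCherry and 96.2, 99.8 and 94.3 CPM in dTAG FL-NPM1c. It had 76.0, 78.3 and 83.8 CPM in dTAG C-body null, against 90.3, 91.3 and 101 CPM in NTC DMSO. The dTAG FL-NPM1c and NTC DMSO libraries lay above the other 2 groups. IDH2 fell in dTAG mCherry against NTC DMSO (-0.26 ± 0.09, adjusted p = 0.0497) and rose in dTAG FL-NPM1c against dTAG mCherry (0.30 ± 0.09, 0.036). The first was called with 1 of 6 libraries left out, dTAG mCherry replicate 2 (adjusted p 0.0050 to 0.19), and the second likewise only without dTAG mCherry replicate 2 (0.0032 to 0.16). The first was also lost with library totals (0.092), the 50-count filter (0.065) or the 2 groups alone (0.16), and the second with the 2 groups alone (0.075). IDH2 in dTAG FL-NPM1c against dTAG C-body null was 0.29 ± 0.09 (adjusted p = 0.057, and 0.040 in DESeq2). It was also called there without the low-count filter and with the 2 groups alone. In dTAG C-body null against NTC DMSO the IDH2 value was -0.25 ± 0.09 (0.053, and 0.035 in DESeq2). There it was also called with RLE factors, without the filter and with the 2 groups alone. Neither was called with any library left out. IDH1 made up 68.1% ± 4.64 of the summed IDH1 and IDH2 level per kb of union exon length in dTAG mCherry, 56.1% ± 0.86 in dTAG FL-NPM1c, 65.2% ± 1.91 in dTAG C-body null and 63.9% ± 3.37 in NTC DMSO. This share also depends on the length used. Per kb of the longest transcript IDH1 averaged 116 and IDH2 29.2 CPM in dTAG mCherry, and 85.1 and 35.9 in dTAG FL-NPM1c.

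Of 17 tested genes that make or use 2-oxoglutarate and 2-hydroxyglutarate, 1 rose and 2 fell in dTAG FL-NPM1c against dTAG mCherry (median -0.03), where 15.5% of all genes were called. IDH3A, a subunit of the NAD-dependent isocitrate dehydrogenase of the citric acid cycle, averaged 58.0 ± 2.06 CPM in dTAG FL-NPM1c and 84.3 ± 5.80 in dTAG mCherry (-0.54 ± 0.08, adjusted p = 0.00024). It was also lower in dTAG FL-NPM1c than in dTAG C-body null (-0.43 ± 0.08) and NTC DMSO (-0.45 ± 0.08). Against NTC DMSO, 1 gene of this list rose and 5 fell in dTAG FL-NPM1c, with 27.9% of all genes called. The gene that rose was IDH3G, another subunit of the same dehydrogenase as IDH3A (0.43 ± 0.12, adjusted p = 0.013). In both dTAG mCherry and dTAG C-body null 1 rose and 1 fell against NTC DMSO, where 22.6% and 26.6% of all genes were called. GPT2, a mitochondrial alanine aminotransferase, rose by 0.41 ± 0.09 in dTAG FL-NPM1c against dTAG mCherry. SDHB, a succinate dehydrogenase subunit, fell by 0.26 ± 0.07 in that comparison. Of 14 tested genes of the methyl donor cycle, 0 rose and 3 fell in dTAG mCherry against NTC DMSO (median -0.17; 9.69% of all genes fell): TYMS (-0.44), SHMT2 (-0.42) and MTHFD1 (-0.41), enzymes of folate metabolism. SHMT2 rose (0.42 ± 0.11) and MAT2A, which makes S-adenosylmethionine, fell (-0.26 ± 0.08) in dTAG FL-NPM1c against dTAG mCherry, where 2 of the list rose and 3 fell. Against NTC DMSO, 0 rose and 8 fell in dTAG FL-NPM1c (median -0.24; 13.3% of all genes fell), and 1 rose and 6 fell in dTAG C-body null (median -0.20; 12.4%). In dTAG C-body null against dTAG mCherry 0 genes of any of these 5 lists (maintenance partners, readers, base excision and TET partners, methyl donor cycle, 2-oxoglutarate) were called. Over all genes the share called there was 0.594%.

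Profiles over the 12 libraries were compared by the root-mean-square difference of log2 CPM, each gene centred on its mean, among 10471 genes. Nearest to UHRF1 were CDCA5 (0.0589), FOXM1 (0.0598) and CLN6 (0.0687), against a median of 0.300 over all candidates. For DNMT3B they were NCAPD3 (0.0736), SPAG5 (0.0886) and ORC1 (0.0902; median 0.274). For TET1 they were SP4 (0.120), ATP2B4 (0.132) and DIXDC1 (0.142; median 0.469), and for TET2 SORL1 (0.0787), PSD3 (0.0812) and CBL (0.0906; median 0.346).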

How the data were processed

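Per the labels' protocols, the 12 libraries were made from OCI-AML3 total RNA by a stranded mRNA kit. The authors deposited whole-number counts for each Ensembl gene; STAR, featureCounts, DESeq2 and hg38 are named in the submitters' processing notes, while not given in the sources used here are the annotation, the strand setting and how multi-mapping reads were treated. Of 78936 lines, 6 broken ones (2 genes) were left out. The library number in each description tied a column to its sample, an inference.

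The genes, lists, tests and alternatives were chosen with earlier results of these data known. Symbols came from a gene name table (42177) and GENCODE 29 (15568), which also gave coordinates. Counts were analysed with edgeR 4.0.16 (R 4.3.3): filterByExpr by group (0.0795% of counts removed), TMM (0.975 to 1.02) and 1 quasi-likelihood fit of all 12 libraries without a block, with Benjamini-Hochberg adjustment over 24064 genes and calls at adjusted p under 0.05. Intervals are normal 95% intervals. Log2 CPM used a prior count of 2, and levels per kb the union of exons. All 9 genes are named in every comparison; of the gene lists, up to 3 called genes with the largest change per list and comparison could be named. Not every gene so allowed is reported here. Likeness used genes with a mean of at least 5 CPM, for the genes above that were called with a log2 fold change of 0.5 or more in size. The scripts were tested on simulated data. The alternatives tried were RLE factors, DESeq2 1.42.0, library totals, no filter, a 50-count minimum in 3 libraries, calls at adjusted p under 0.01, each pair of groups fitted alone, the replicate block and each library left out.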

Additional observations from a re-analysis of the deposited data

How the results depend on the processing

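The number of the 9 genes called moved with some choices. For dTAG FL-NPM1c against dTAG mCherry it was 5, and 2 with the 2 groups alone, 4 with library totals, 1 at adjusted p under 0.01 and 1 to 5 over the libraries left out. For dTAG FL-NPM1c against dTAG C-body null it was 2, and 4 with the 2 groups alone, 3 without the filter or in DESeq2, 0 at adjusted p under 0.01 and 0 to 3 over the libraries left out. For dTAG C-body null against NTC DMSO it was 5, and 6 with RLE factors, without the filter, with the 2 groups alone or in DESeq2, 4 with library totals, 3 at adjusted p under 0.01 and 4 to 5 over the libraries left out. For dTAG mCherry against NTC DMSO it was 6, and 4 at adjusted p under 0.01, 5 to 6 with the other settings and 4 to 5 over the libraries left out. For dTAG FL-NPM1c against NTC DMSO it was 4, and 5 without the filter or with the 2 groups alone, and 4 with any library left out. For dTAG C-body null against dTAG mCherry it was 0 in every setting. Counts over all genes ranged over the settings from 3196 to 5894 for dTAG mCherry against NTC DMSO (5429 as reported), 1287 to 6834 for dTAG FL-NPM1c against dTAG mCherry (3735), 60 to 1399 for dTAG C-body null against dTAG mCherry (143), 1169 to 4410 for dTAG FL-NPM1c against dTAG C-body null (2329), 3647 to 7807 for dTAG FL-NPM1c against NTC DMSO (6712) and 3939 to 7052 for dTAG C-body null against NTC DMSO (6389).

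Signs turned only for values that were called in neither setting. IDH1 in dTAG mCherry against NTC DMSO was 0.012 as reported, and -0.0087 with RLE factors, -0.021 without the filter, -0.0088 in DESeq2. DNMT3A in dTAG mCherry against NTC DMSO was 0.00071 as reported, and -0.021 with RLE factors, -0.029 without the filter, -0.00026 with the replicate block, -0.020 in DESeq2. DNMT3B in dTAG C-body null against dTAG mCherry was -0.016 as reported, and 0.00096 with RLE factors, 0.00067 with the 2 groups alone, 0.00068 in DESeq2. TET3 in dTAG FL-NPM1c against dTAG C-body null was 0.002 as reported, and -0.0096 with RLE factors, -2.3e-05 without the filter, -0.00026 with the replicate block, -0.0094 in DESeq2. With libraries left out, dTAG mCherry against NTC DMSO ran from -0.11 to 0.051 for DNMT3A, from -0.054 to 0.076 for IDH1. With libraries left out, dTAG FL-NPM1c against dTAG mCherry ran from -0.051 to 0.12 for DNMT3B, from -0.065 to 0.093 for TET3. With libraries left out, dTAG C-body null against dTAG mCherry ran from -0.11 to 0.051 for DNMT3B, from -0.037 to 0.091 for TET3, from -0.084 to 0.18 for TET2, from -0.30 to 0.0080 for TET1, from -0.074 to 0.11 for IDH2, from -0.012 to 0.15 for DNMT3A, from -0.051 to 0.13 for UHRF1. With libraries left out, dTAG FL-NPM1c against dTAG C-body null ran from -0.085 to 0.040 for TET3, from -0.0066 to 0.13 for DNMT3B. With libraries left out, dTAG FL-NPM1c against NTC DMSO ran from -0.014 to 0.091 for IDH2. With libraries left out, dTAG C-body null against NTC DMSO ran from -0.019 to 0.088 for DNMT3A. The cause was not tested.

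With the replicate number as a block, 2 of the 9 genes were called in dTAG FL-NPM1c against dTAG mCherry and 1 in dTAG FL-NPM1c against dTAG C-body null. The calls lost were UHRF1 (adjusted p = 0.072), TET1 (0.067) and IDH2 (0.065) in the first comparison and IDH1 (0.087) in the second, and IDH2 in dTAG mCherry against NTC DMSO (0.080). Libraries with the same number did not deviate together (residual correlation -0.307 to 0.159 over 18 pairs, over 0.1 in 2), and in 12 of 36 matches of a library to another group its best match had its own number. TET1, with 121 to 293 counts per library, had the least depth of the 9 genes.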
